A study of Homo sapiens with 15 samples.

Results

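Expression of 10 genes of the Krüppel-like factor (KLF) family was followed in BEAS-2B cells exposed to fine particulate matter (PM2.5). The members were chosen by name as KLF2, KLF3, KLF4, KLF5, KLF6, KLF7, KLF9, KLF10, KLF11 and KLF13. These are 10 of the 58219 genes in the count table, and 8 other KLF genes there were kept as a context list. The choice was made with earlier results of these data known, so the members are not an unselected sample of the family. BEAS-2B is a single immortalized line of human bronchial epithelial cells, grown here without serum in bronchial epithelial growth medium on plates coated with collagen. RNA was sequenced from 15 libraries in 5 groups of 3 experiments. In the single-exposure protocol, cells were collected 24 h after vehicle control, 1 µg/cm2 of PM2.5 or 30 µg/cm2 of PM2.5. In the repeated protocol, cells received either PM2.5 at 1 µg/cm2 or the vehicle every day, with a wash between exposures, and were collected on day 7 from wells plated at a lower density. The particles came from filters sampled in Beijing and extracted in water, and no group carried a genetic change, so the groups of one protocol differed by the particles they received. The labels count 7 daily exposures and the methods 6. All cells belong to 1 line, so the spread between libraries is that between experiments and not between people.

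KLF proteins are transcription factors with zinc fingers near the carboxy end that bind GC-rich and CACCC-type sequences, the same sites that the related SP factors bind. Their amino ends differ and decide the partner. KLF2, KLF4, KLF5, KLF6 and KLF7 mainly activate transcription, KLF3 recruits the corepressor CtBP, and KLF9, KLF10, KLF11 and KLF13 recruit the corepressor Sin3A. In airway and other epithelia, KLF4 is known from differentiation and barrier formation, KLF5 from proliferating and basal cells, KLF9 as a target of the glucocorticoid receptor, and KLF10 and KLF11 as early genes of TGF-beta signalling.

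Many KLF genes are themselves controlled through GC boxes, the family's own kind of binding site, so the sequence just around the transcription start is shown for the members whose expression differed most between groups and for KLF2. Each window runs from 250 bases before to 50 bases after a start in RefSeq (GRCh38.p14) and is written 5′ to 3′ on the gene's strand. Capitals mark the GC box GGGCGG read on either strand (CCGCCC is its other strand), the E-box CACGTG, the cAMP response element TGACGTCA and the MEF2 box, which is the element through which the MEK5-ERK5 kinases induce KLF2. Adjoining capitals in the KLF2 window come from GC boxes that overlap or touch. KLF5 and KLF11 have a pair of RefSeq starts each, of which the downstream one is shown.
KLF2, chr19:16324576-16324875, plus strand: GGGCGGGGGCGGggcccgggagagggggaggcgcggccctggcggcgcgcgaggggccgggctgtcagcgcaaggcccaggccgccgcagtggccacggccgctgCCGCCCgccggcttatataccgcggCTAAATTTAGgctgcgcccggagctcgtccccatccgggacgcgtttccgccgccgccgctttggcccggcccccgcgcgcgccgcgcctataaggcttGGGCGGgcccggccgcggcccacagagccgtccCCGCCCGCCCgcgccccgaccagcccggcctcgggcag
KLF4, chr9:107489720-107490019, minus strand: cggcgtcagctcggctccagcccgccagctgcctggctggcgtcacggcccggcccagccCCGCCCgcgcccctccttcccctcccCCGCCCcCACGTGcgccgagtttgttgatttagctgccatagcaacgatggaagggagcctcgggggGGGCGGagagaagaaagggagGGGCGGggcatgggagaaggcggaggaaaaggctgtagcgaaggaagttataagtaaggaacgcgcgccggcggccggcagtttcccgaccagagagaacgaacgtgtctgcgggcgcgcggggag
KLF5, chr13:73058755-73059054, plus strand: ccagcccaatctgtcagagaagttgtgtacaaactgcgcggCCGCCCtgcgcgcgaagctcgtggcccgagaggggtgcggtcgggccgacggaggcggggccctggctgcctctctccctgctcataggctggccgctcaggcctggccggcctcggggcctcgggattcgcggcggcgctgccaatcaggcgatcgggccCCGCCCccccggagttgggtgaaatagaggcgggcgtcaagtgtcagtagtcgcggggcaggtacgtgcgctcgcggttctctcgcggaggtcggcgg
KLF9, chr9:70414608-70414907, minus strand: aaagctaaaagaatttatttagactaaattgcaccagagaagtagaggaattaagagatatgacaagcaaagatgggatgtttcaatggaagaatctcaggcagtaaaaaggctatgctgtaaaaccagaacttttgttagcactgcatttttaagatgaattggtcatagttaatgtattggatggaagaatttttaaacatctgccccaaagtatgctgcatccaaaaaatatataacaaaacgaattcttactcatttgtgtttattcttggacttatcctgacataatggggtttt
KLF11, chr2:10043971-10044270, plus strand: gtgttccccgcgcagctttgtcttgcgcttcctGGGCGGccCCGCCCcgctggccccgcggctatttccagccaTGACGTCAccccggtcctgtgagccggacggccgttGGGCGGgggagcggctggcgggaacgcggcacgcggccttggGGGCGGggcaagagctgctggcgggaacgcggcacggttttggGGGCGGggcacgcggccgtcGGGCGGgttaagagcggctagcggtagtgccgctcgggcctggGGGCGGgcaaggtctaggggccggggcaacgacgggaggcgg

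RefSeq windows were matched for 8 of the 10 members, with 13 windows in all, and none is shown for KLF3 or KLF10. At least 1 GC box was found in 8 of the 13 windows, against 45.0% of the 35116 windows of all genes. The KLF11 window above held 7 GC boxes, the KLF2 window 6, the KLF4 window 4 and the KLF5 window 2, while the upstream KLF5 window held 0. The KLF9 window held none of the motifs and had a GC content of 32.7%, against 71.3% in that of KLF5 and a median of 58.7% over all windows. An E-box was present in the KLF4 window, and in windows not shown of KLF6, KLF7 and KLF11 (upstream start), against 7.26% of all windows. A cAMP response element was present in the KLF11 window above and in 1.85% of all windows. The KLF2 window held the MEF2 box, which was found in 0.572% of all windows. A match describes letters and is not a measured site, and a window without a match says only that these letters are not in it.

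All 10 members passed the filter on low counts that kept 17599 genes for testing. The libraries held 21460981 to 34724765 counts (median 29243177), and 3 counts, taken as the floor, equalled 0.0864 to 0.140 CPM (counts divided by library size on a common scale, with TMM). The least counted member in any library was KLF2 with 48 counts after 1 µg/cm2 at 24 h, and KLF9 reached 8635 counts in a repeated control. Libraries of 24-h experiment 2 stood apart from those of the other 24-h experiments: within a condition, chi-square per degree of freedom over all genes was 68.6 to 161 for pairs with experiment 2, and 4.11 to 16.4 between experiments 1 and 3. In the repeated protocol it was 4.04 to 23.1. Of the epithelial markers, 8 of 8 were above the floor, and their summed level ranged from 3950 to 4390 CPM in the 24-h controls and from 1747 to 2872 CPM after 30 µg/cm2. It ranged from 3397 to 4810 CPM after a single 1 µg/cm2, from 3483 to 4226 CPM in the repeated controls and from 2504 to 2712 CPM after repeated exposure. The endothelial markers summed to at most 3.58 CPM and the blood cell markers to at most 23.4 CPM, nearly all of it CD14, while the leukocyte gene PTPRC was at 0 counts in 4 of the 5 groups. Markers of fibroblasts and smooth muscle summed to 48.0 to 89.8 CPM.

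Per kilobase of exon, which allows levels of different genes to be compared, KLF9 and KLF6 were the most abundant members in the 24-h vehicle controls, at 31.0 ± 7.14 and 27.6 ± 7.94 CPM per kb (SD, n = 3). KLF5 followed at 19.4 ± 1.15 and KLF10 at 14.4 ± 1.09 CPM per kb. KLF3 stood at 6.56 ± 0.298, KLF7 at 3.67 ± 0.888 and KLF4 at 3.36 ± 0.135 CPM per kb. KLF2, KLF11 and KLF13 were lowest, at 2.58 ± 1.66, 1.27 ± 0.267 and 0.610 ± 0.116 CPM per kb. Neighbours in this order whose libraries overlapped were KLF9 with KLF6, KLF6 with KLF5, KLF7 with KLF4 and KLF4 with KLF2. After 30 µg/cm2 KLF10 came first, at 25.7 ± 10.9 CPM per kb, overlapping with KLF9 at 21.5 ± 1.09. In the repeated controls KLF9 was far ahead at 50.0 ± 2.11 CPM per kb, and KLF4 had moved up to the fourth place at 12.2 ± 1.79.

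**Figure D1:**
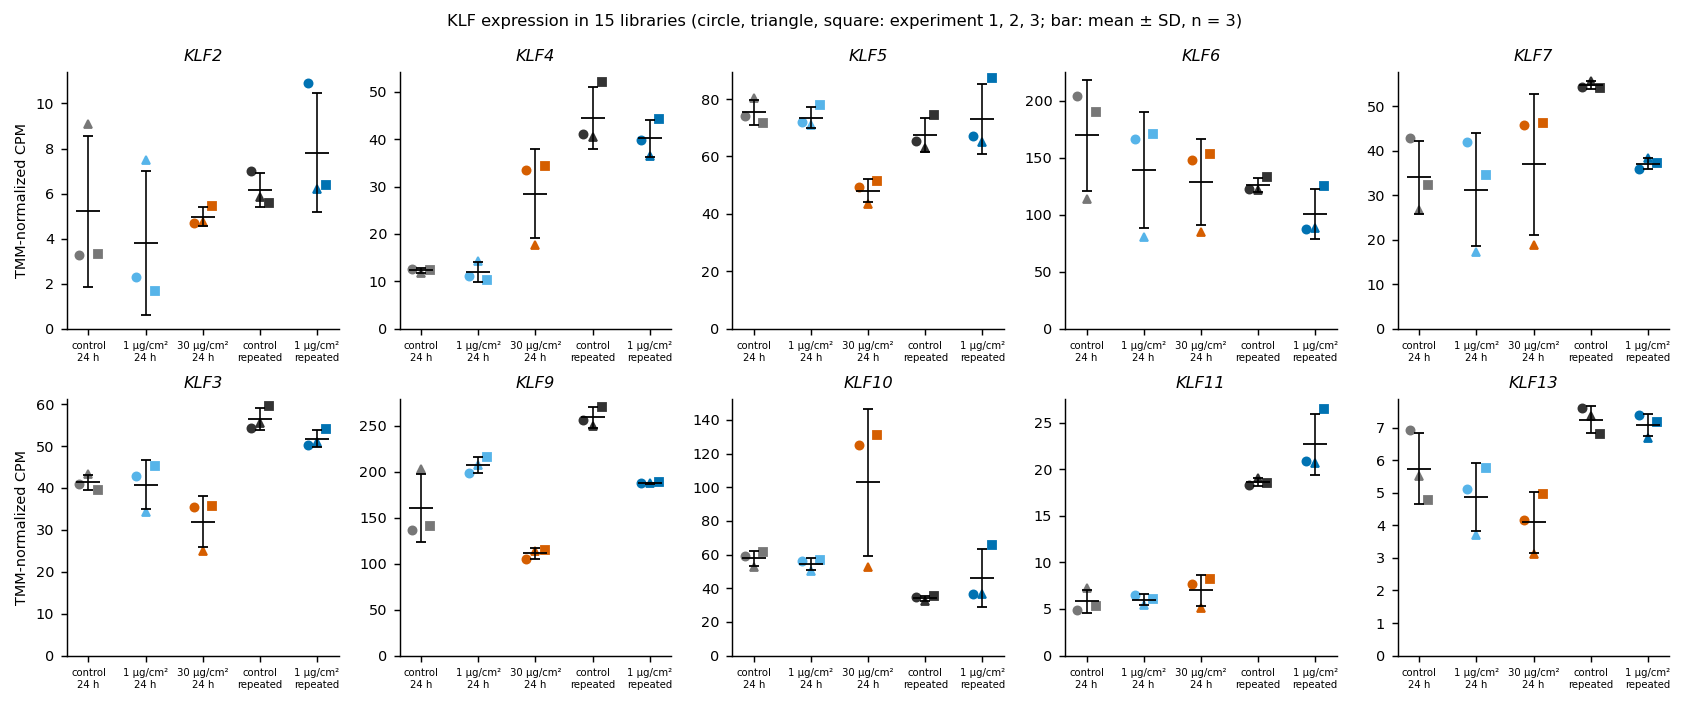
TMM-normalized CPM (y axes, starting at 0) of each member in the 5 groups (x axes). Circles, triangles and squares are experiments 1, 2 and 3 of their protocol, and bars are mean ± SD (n = 3). KLF4 lay between 17.7 and 34.2 CPM after 30 µg/cm2, above all 24-h controls, and in the repeated controls between 40.5 and 52.1 CPM. KLF9 was lowest after 30 µg/cm2.

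The first comparison asked how the members responded to 24 h of a high concentration of PM2.5. KLF4 rose and KLF5 fell after 30 µg/cm2, so the pair of activators best known from epithelium moved in opposite directions. KLF9 was also lower in every library, by less than the fold required for a call, and KLF10 was higher in experiments 1 and 3 alone. Genes were called at an adjusted p under 0.05 (edgeR quasi-likelihood test, Benjamini-Hochberg over all tested genes) whose log2 fold-change was 0.6 or more in size. By this rule 1 of the 10 members was called higher and 1 lower, where 3.82% of all tested genes were called higher and 4.24% lower. Treated and control libraries did not overlap for 4 of 10 members, against 22.8% of all genes. The median log2 fold-change was -0.21 over the members and 0.03 over all tested genes.

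KLF4 (ENSG00000136826.14, chr9:107484852-107490482, minus strand), which takes part in epithelial differentiation and in reprogramming to pluripotency, measured 12.7, 11.7 and 12.4 CPM in the controls of experiments 1, 2 and 3. After 30 µg/cm2 it measured 33.5, 17.7 and 34.2 CPM. The library of experiment 2 rose least, and still lay above every control library. The log2 fold-change was 1.21 ± 0.219 (SE), a 2.32-fold rise, with an adjusted p of 0.00306 (edgeR) and 9 of 9 pairs of libraries higher. Within experiments 1, 2 and 3 the log2 differences were 1.40, 0.59 and 1.46. The call rested on the spread shared by all 15 libraries: with only the 6 libraries compared, the log2 fold-change was 1.21 and the adjusted p 0.0708 (edgeR). Over all alternatives the adjusted p ranged from 2.79e-07 to 0.0708.

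KLF5 (ENSG00000102554.13, chr13:73054976-73077542, plus strand), which supports proliferation of basal epithelial cells, measured 74.1, 80.3 and 71.6 CPM in the controls and 49.4, 43.5 and 51.3 CPM after 30 µg/cm2. All treated libraries lay below all control libraries, and experiment 2 held both the highest control and the lowest treated value. It fell by 0.65 ± 0.128 on the log2 scale, to 0.638 times the control level, with an adjusted p of 0.00546 (edgeR). The decrease lay close to the required fold. Without the 30 µg/cm2 library of experiment 2 the log2 fold-change was -0.59 (adjusted p 0.0106), and without all libraries of that experiment -0.55 (adjusted p 0.00199, edgeR), so that in both cases the adjusted p passed and the fold did not. With only the libraries compared, the adjusted p was 0.0694.

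The other activators moved less. KLF6, induced early after tissue injury in several organs, measured 205, 114 and 190.3 CPM in the controls and 148, 84.9 and 153 CPM after 30 µg/cm2. The treated library was lower than its control within each experiment, by log2 differences of -0.47, -0.42 and -0.31, while levels in experiment 2 were lower than in the others in both groups. The log2 fold-change was -0.40 ± 0.299 (adjusted p 0.472, edgeR). Treated and control cells of 1 experiment were handled together, and when the experiment number entered the fit as a replicate block, the same change of -0.40 had an SE of 0.0971 and an adjusted p of 0.00796, short of the required fold. KLF7, best known from neurons, gave 0.12 ± 0.327 and KLF2, a factor of quiescent endothelium and lymphocytes, -0.06 ± 0.495 (adjusted p 0.877 and 0.967).

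KLF2 showed the widest spread of the members. Its 24-h controls measured 3.25, 9.09 and 3.29 CPM, and the libraries after 30 µg/cm2 4.70, 4.75 and 5.46 CPM. The treated level was higher than control in experiments 1 and 3, by log2 differences of 0.52 and 0.72, and lower in experiment 2, by -0.93. In experiment 2 the control was well above those of the other experiments. The 95% interval of the log2 fold-change ran from -1.03 to 0.91.

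Among the repressors, KLF9 (ENSG00000119138.4, chr9:70384597-70414624, minus strand) measured 137, 203 and 141 CPM in the controls and 105, 114 and 114 CPM after 30 µg/cm2. Every treated library lay below every control library, and the control of experiment 2 lay well above the other controls. The log2 fold-change was -0.53 ± 0.135 with an adjusted p of 0.0228 (edgeR), which passed the threshold on p and not that on fold. It passed both without the control library of experiment 1, at -0.65, or of experiment 3, at -0.63. Without the control library of experiment 2 it was -0.33 (adjusted p 0.0666), and without all libraries of that experiment -0.36 (adjusted p 0.002). Without the 30 µg/cm2 library of experiment 1 or 3 the adjusted p was 0.106 or 0.0714, and with only the libraries compared 0.208. KLF3 (chr4:38664196-38701042) measured 41.0, 43.3 and 39.6 CPM in the controls and 35.4, 24.8 and 35.7 CPM after treatment, again without overlap, at -0.37 ± 0.144 (adjusted p 0.13).

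KLF10 (ENSG00000155090.14), first described as an early gene of TGF-beta signalling, measured 59.2, 52.9 and 61.3 CPM in the controls and 125, 52.4 and 131 CPM after 30 µg/cm2. Levels in experiments 1 and 3 were far above every control, and in experiment 2 the treated library matched its control, with log2 differences of 1.08, -0.01 and 1.09. The log2 fold-change was 0.83 ± 0.288 (adjusted p 0.0877, edgeR). It was called with the replicate block, at 0.76 (adjusted p 0.017), where 15.2% of all genes were called in either direction, and by DESeq2 at 0.82 (adjusted p 0.0478). Without the 30 µg/cm2 library of experiment 2 it was 1.14 (adjusted p 0.00186, edgeR), and without all libraries of experiment 2 it was 1.07. Over all alternatives the adjusted p lay between 0.000334 and 0.332. KLF11, its closest relative in the family, was also higher in experiments 1 and 3, at a much lower level, but fell in experiment 2. It measured 4.91, 7.20 and 5.31 CPM in the controls and 7.73, 5.10 and 8.19 CPM after treatment, with log2 differences of 0.65, -0.49 and 0.62. Its log2 fold-change was 0.27 ± 0.196 (adjusted p 0.448), and 0.62 (adjusted p 0.0023) without the libraries of experiment 2. KLF13, which was lower in 8 of 9 pairs of libraries, gave -0.49 ± 0.211 (adjusted p 0.169). With the replicate block KLF3, KLF9 and KLF13 gave -0.39, -0.51 and -0.51 (adjusted p 0.0225, 0.00353 and 0.0459, edgeR). All of these values were short of the required fold.

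**Figure D2:**
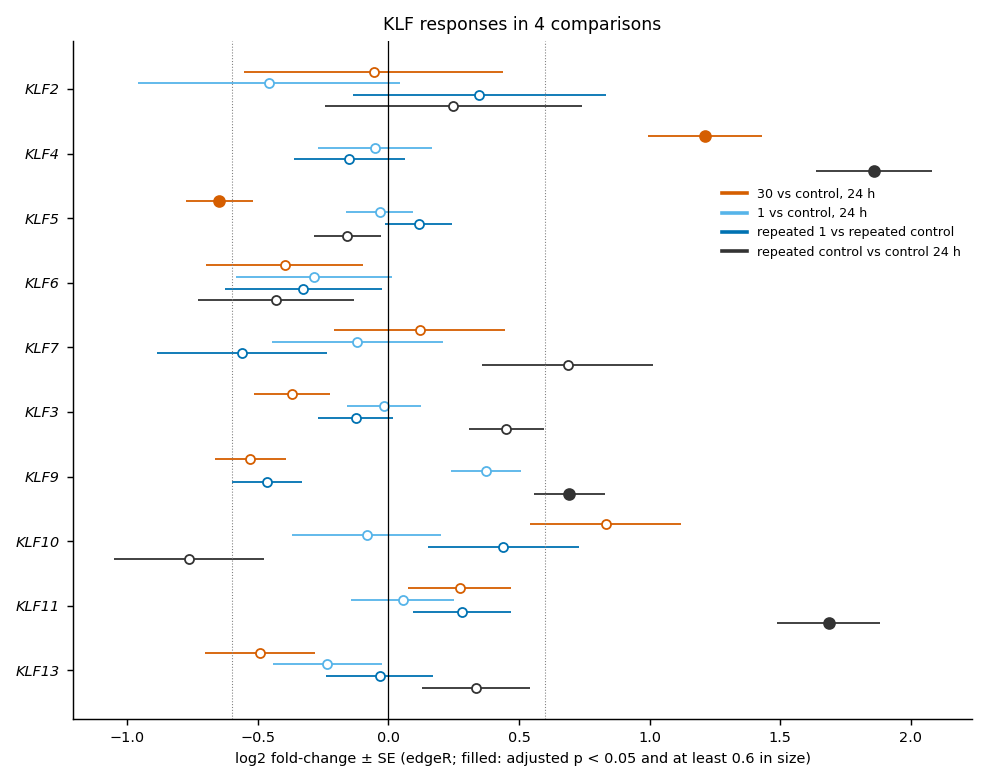
Log2 fold-change ± SE (x axis) of each member (rows) in 4 comparisons, from an edgeR fit of all 15 libraries. Filled points passed both thresholds (adjusted p under 0.05 and at least 0.6 in size, dotted lines), and open points did not. Filled points are KLF4 at 1.21 and KLF5 at -0.65 after 30 µg/cm2, and KLF4, KLF11 and KLF9 at 1.86, 1.69 and 0.69 between the controls.

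The keratin 5 gene KRT5, a marker of basal cells, fell by 2.46 on the log2 scale after 30 µg/cm2, and 5 of the 8 epithelial markers were called lower (KRT5, KRT7, KRT8, KRT19 and CDH1). These markers were lower in the same cells in which KLF5 and KLF9 were lower and KLF4 was higher. The part of the markers in those results was not tested. In bulk RNA, fewer cells of a type cannot be told apart from less RNA of a gene per cell.

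Genes around the KLF members were followed in lists. None of the 4 other tested KLF genes, the 6 tested SP genes, the 12 corepressors and coactivators, the 9 tested ubiquitin ligases and deubiquitinases of KLF proteins and the 7 tested members of the MEK5-ERK5-MEF2 route was called after 30 µg/cm2. Among the TGF-beta-SMAD genes, the inhibitor SMAD7 rose by 0.77 ± 0.174 on the log2 scale, while the receptor TGFBR2 fell by 1.19 ± 0.316. Of 10 genes of the glucocorticoid receptor list, which includes KLF9, 1 was called, the phosphatase gene DUSP1, which fell by 1.07 ± 0.184. The list median of -0.53 counts KLF9, whose own value of -0.53 lies at it, so it is no separate evidence about KLF9. FKBP5, a co-chaperone of the receptor, gave -0.52 ± 0.127 (adjusted p 0.0179, edgeR), short of the fold, and was named after its value was seen. Mean levels of TSC22D3, PER1, SGK1 and ZBTB16 were also lower than control, and those of NR3C1, ERRFI1 and CRISPLD2 were not. FKBP5 averaged 661 CPM in the 24-h controls, 611 after a single 1 µg/cm2 and 566 in the repeated controls. In both of the latter groups the mean of KLF9 was above that of the 24-h controls. Of 13 tested reported KLF targets, 3 were called higher and 2 lower, with a median of -0.08. The cell cycle inhibitor gene CDKN1A rose by 1.61 ± 0.214, SMAD7 (on this list too) by 0.77 and LGALS3 by 0.62, and the cyclin gene CCNB1 fell by 0.98 and the cadherin gene CDH1 by 0.70.

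No member met the thresholds at the low concentration. After a single 1 µg/cm2, 0 of 10 members were called by edgeR, where 0.0625% of all tested genes were called, and DESeq2 called 0 members as well. At an unadjusted p under 0.05 (edgeR), 1 of 10 members passed, KLF9, where 534 of the 17599 tested genes passed. Treated and control libraries were fully separate for 0 of 10 members, against 4.44% of all genes. None of the gene lists held a called gene. KLF9 measured 199, 208 and 216 CPM, where the controls had measured 137, 203 and 141 CPM. The treated libraries lay close together, and the control of experiment 2 fell among them. The log2 fold-change was 0.37 ± 0.135 (adjusted p 1, edgeR), and within the experiments the differences were 0.54, 0.03 and 0.62. Without the libraries of experiment 2 it was 0.59 (adjusted p 0.000279), just short of the required fold. KLF4 measured 11.1, 14.3 and 10.3 CPM and KLF5 71.9, 70.9 and 77.8 CPM, values within or around those of the controls. The log2 fold-changes were -0.05 (95% interval -0.48 to 0.38) and -0.03 (-0.28 to 0.22). KLF10 was at 56.4, 50.3 and 56.9 CPM, with log2 differences from its own controls of -0.07, -0.07 and -0.11. KLF2, at 2.28, 7.49 and 1.69 CPM, was below the control of each experiment, with a log2 fold-change of -0.46 ± 0.501. Experiment 2 again held the highest KLF2 library, and the value was 0.21 without its control and -1.38 without its 1 µg/cm2 library. KLF6 was also below its control in each experiment, by -0.30, -0.50 and -0.15, at -0.28 ± 0.299. For KLF3, KLF7, KLF11 and KLF13 the log2 fold-changes were -0.02, -0.12, 0.05 and -0.23, and the adjusted p of each of these 6 members was 1.

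The direct test between the concentrations, from the same fit of all 15 libraries, called 3 members. The 30 µg/cm2 libraries exceeded those of 1 µg/cm2 for KLF4 by 1.26 ± 0.219 (adjusted p 0.00288, edgeR) and lay below them for KLF5, at -0.61 ± 0.128 (adjusted p 0.00829), and for KLF9, at -0.90 ± 0.136 (adjusted p 0.00107). Called higher were thus 1 of 10 members and lower 2 of 10, against 3.62% and 4.22% of all genes, and for the same 3 members the groups did not overlap, against 21.6% of all genes. KLF9 gave nearly the same difference in each experiment, -0.93, -0.86 and -0.92, and remained called under every alternative run, with adjusted p-values from 5.37e-09 to 0.0461. With only the libraries compared, KLF4 and KLF5 kept their size (1.23 and -0.64) and had adjusted p-values of 0.111 and 0.0986. KLF5 was short of the required fold without the 30 µg/cm2 library of experiment 2 (-0.56), without the 1 µg/cm2 library of experiment 3 (-0.58) and without experiment 2 (-0.60). KLF10 gave 0.91 ± 0.289 (adjusted p 0.0608), and with the replicate block, which called 15.6% of all genes, 0.84 (adjusted p 0.00955). KLF2 gave 0.40 ± 0.501, and 1.33 (adjusted p 0.00126) without experiment 2. For KLF3, KLF6, KLF7, KLF11 and KLF13 the log2 fold-changes were -0.35, -0.11, 0.24, 0.22 and -0.26, with adjusted p-values of 0.145 or more. On the lists, CDKN1A exceeded its low-dose level by 1.40 ± 0.213, while ZBTB16, a glucocorticoid-induced repressor, was lower by -1.28 ± 0.371.

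The repeated protocol asked how the members responded to small daily exposures. By edgeR 0 of 10 members were called after repeated 1 µg/cm2 against the repeated controls, where 0.227% of all genes were called, and DESeq2 also called 0 members. At an unadjusted p under 0.05 (edgeR), 1 of 10 members passed, again KLF9, where 2102 of the 17599 tested genes passed. Libraries of the groups did not overlap for 5 of 10 members, against 42.9% of all genes, so such separation was common in this protocol. KLF3, KLF7 and KLF9 were lower and KLF10 and KLF11 higher in 9 of 9 pairs. None of the context lists held a called gene, and of the epithelial markers KRT5 was called lower, at -0.93 on the log2 scale, whose part in these values was not tested.

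KLF9 measured 256, 249.5 and 271 CPM in the repeated controls and 187, 187 and 188 CPM after repeated exposure. The treated libraries were nearly identical and lay well below the controls. The log2 fold-change was -0.46 ± 0.134 (adjusted p 0.173, edgeR). KLF7 measured 54.5, 55.8 and 54.1 CPM and 35.8, 38.4 and 37.3 CPM. Both groups were tight and far apart, with a log2 fold-change of -0.56 ± 0.327 and an adjusted p of 0.537. The SE came from a spread shared with the 24-h libraries, in which KLF7 ranged from 17.2 to 46.4 CPM. With only the libraries compared, KLF7 was at -0.55 ± 0.0611 (adjusted p 0.000386, edgeR) and KLF9 at -0.46 ± 0.0527 (adjusted p 0.000424). Both stayed short of the required fold in that run, which called 1029 genes. With the replicate block, which called 4.39% of all genes, KLF7 was at -0.56 ± 0.144 (adjusted p 0.0268), KLF9 at -0.46 ± 0.107 (adjusted p 0.0186) and KLF6 at -0.34 ± 0.0972 (adjusted p 0.038), all short of the required fold.

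KLF10 measured 34.7, 32.2 and 35.2 CPM in the repeated controls and 36.3, 36.4 and 65.9 CPM after repeated exposure. The library of experiment 3 stood far above the other treated libraries, and the log2 fold-change of 0.44 ± 0.288 (adjusted p 0.591) was between 0.09 and 0.59 with one library left out at a time. KLF11 was highest in the same library, with 20.8, 20.7 and 26.5 CPM against 18.3, 19.1 and 18.6 CPM in the controls. KLF4 remained high in both groups of this protocol, with 39.9, 36.4 and 44.2 CPM after exposure against 41.0, 40.5 and 52.1 CPM, a log2 fold-change of -0.15 (95% interval -0.57 to 0.27). For KLF5 the values were 67.0, 65.2 and 87.2 CPM against 65.3, 62.9 and 74.3 CPM, and the log2 fold-change was 0.12 (-0.14 to 0.36). KLF3 measured 50.3, 50.9 and 54.0 CPM against 54.3, 55.6 and 59.5 CPM, at -0.13 ± 0.143. For KLF2, KLF6 and KLF13 the log2 fold-changes were 0.35 ± 0.485, -0.33 ± 0.299 and -0.03 ± 0.206.

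Whether the responses to single and repeated 1 µg/cm2 differed was tested in the same model. After a single 1 µg/cm2 KLF9 was higher than control in each experiment, and after repeated exposure lower in each experiment, by -0.45, -0.41 and -0.52. The response to repeated exposure minus that to a single exposure was -0.84 ± 0.190 on the log2 scale (adjusted p 0.351, edgeR). In this test 0 genes of 17599 were called, 0% of those tested, 1245 had an unadjusted p under 0.05, and DESeq2 called 75. With the replicate block, which called 1.03% of all genes, KLF9 was called at -0.86 ± 0.152 (adjusted p 0.044), and DESeq2 called it at -0.84 (adjusted p 0.00958). Leaving out the 24-h control of experiment 2 gave -1.05 (adjusted p 0.0119), and leaving out all of experiment 2 -1.05 (adjusted p 1.6e-05). Over all alternatives the value lay between -1.05 and -0.73 and the adjusted p between 1.6e-05 and 0.953. KLF2 and KLF10 were below control in all 3 experiments after a single 1 µg/cm2 and above it in all 3 after repeated exposure. How many of all genes share this pattern was not counted. For KLF2 the difference of responses was 0.81 ± 0.698 (adjusted p 0.884), and without experiment 2 it was 1.06 (adjusted p 0.0364). With one library left out it ranged from 0.14, without the 24-h control of experiment 2, to 1.74, without the 1 µg/cm2 library of that experiment. For KLF10 it was 0.52 ± 0.406 (adjusted p 0.855), and 0.18 without the treated library of repeated experiment 3. For KLF3, KLF4, KLF5, KLF6, KLF7, KLF11 and KLF13 the differences were -0.11, -0.10, 0.15, -0.04, -0.44, 0.23 and 0.20, with adjusted p-values of 0.906 or more. Plating density, washing and time in culture differ together with the number of exposures, so their shares in such differences cannot be told apart.

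**Figure D3:**
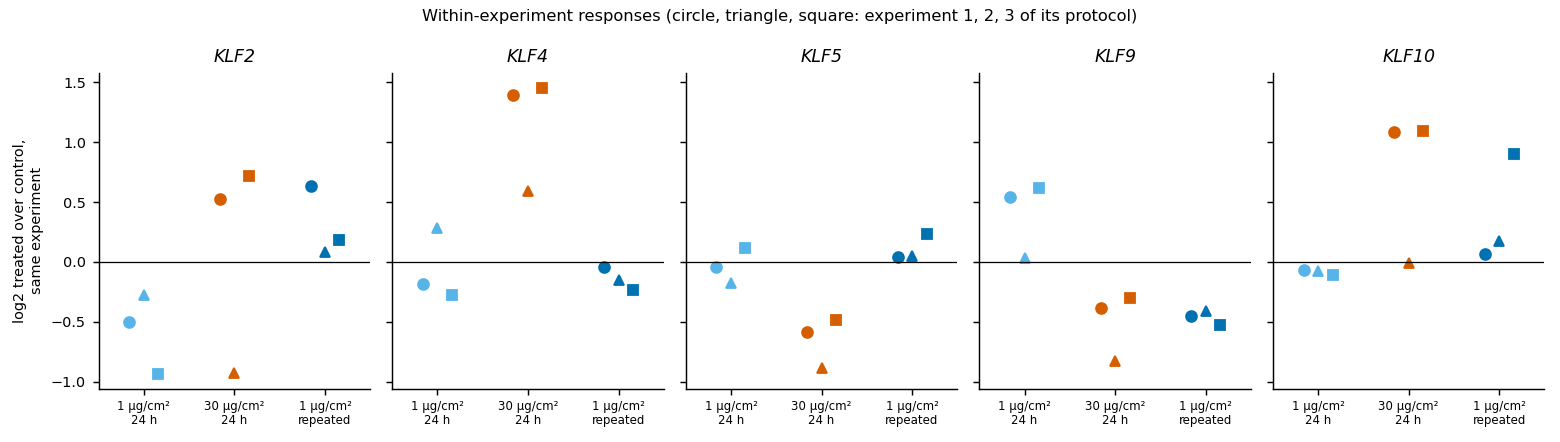
Log2 level after exposure minus that of the vehicle control of the same experiment (y axis) for 5 members, by exposure (x axes). Circles, triangles and squares are experiments 1, 2 and 3 of the 24-h or the repeated protocol. KLF9 was at or above 0 after a single 1 µg/cm2 (0.54, 0.03 and 0.62) and below 0 after 30 µg/cm2 and after repeated exposure, and KLF10 rose by about 1.08 in experiments 1 and 3 and not in experiment 2 (-0.01) after 30 µg/cm2.

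The widest differences among the members lay between the controls of both protocols. KLF4, KLF11 and KLF9 were called higher in the repeated controls than in the 24-h controls, 3 of 10 members, against 11.1% of all genes called higher and 10.8% lower, and no member was called lower. The groups did not overlap for 6 of 10 members, against 52.3% of all genes. The median log2 difference was 0.39 over the members and 0.02 over all tested genes.

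KLF4 measured 41.0, 40.5 and 52.1 CPM in the repeated controls against 12.7, 11.7 and 12.4 CPM at 24 h, so all repeated controls also exceeded all cells given 30 µg/cm2 for 24 h. The log2 difference was 1.86 ± 0.221, or 3.62-fold (adjusted p 6.08e-05, edgeR). KLF11 (ENSG00000172059.10, chr2:10042849-10054836, plus strand) measured 18.3, 19.1 and 18.6 CPM against 4.91, 7.20 and 5.31 CPM. The levels of KLF11 were tight in the repeated controls and stood apart from all 24-h libraries, at 1.69 ± 0.197 or 3.22-fold (adjusted p 5.43e-05). Both calls held under every alternative run. KLF9, at 256, 249.5 and 271 CPM against 137, 203 and 141 CPM, was higher by 0.69 ± 0.135 (adjusted p 0.00191). Without the 24-h control of experiment 1 or 3 the difference for KLF9 was 0.56 or 0.57, below the required fold, and without experiment 2 it was 0.88.

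KLF10 went the other way, with 34.7, 32.2 and 35.2 CPM against 59.2, 52.9 and 61.3 CPM at 24 h. Every repeated control lay below every 24-h control, at -0.76 ± 0.289 (adjusted p 0.0623, edgeR). DESeq2 gave -0.79 (adjusted p 0.0323), and a term for the 2 runs of sample numbers in the labels -0.83 (adjusted p 0.0485, edgeR). KLF3 was higher in 9 of 9 pairs, at 0.45 ± 0.143 (adjusted p 0.0303), short of the fold. KLF7, at 54.5, 55.8 and 54.1 CPM against 43.0, 26.8 and 32.3 CPM, gave 0.69 ± 0.328 (adjusted p 0.133), and 0.67 (adjusted p 0.0167) with only the libraries compared. For KLF2, KLF5, KLF6 and KLF13 the log2 differences were 0.25, -0.16, -0.43 and 0.34, with adjusted p-values of 0.245 or more. KLF2 and KLF6 gave 0.89 (adjusted p 0.00411) and -0.67 (adjusted p 0.000136) without experiment 2.

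Several of the related SP factors were higher as well. Of the 6 tested SP genes 5 were called higher in the repeated controls, SP6 by 1.86 ± 0.222, SP1 by 1.12 ± 0.178, SP2 by 0.86, SP4 by 0.72 and SP3 by 0.71, and the list median was 0.79. SP1 is the broadly expressed factor that binds the GC box. Of the 4 other tested KLF genes, 2 were called higher, KLF15 by 1.33 ± 0.207 and KLF12 by 1.05 ± 0.203. KLF1, KLF14, KLF17, KLF18, SP5, SP7 and SP9 did not pass the filter. Among the 12 corepressors and coactivators, the deacetylase genes HDAC1 and HDAC2 were called lower, by -0.75 and -0.66, and the coactivator CREBBP higher, by 0.88.

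**Figure D4:**
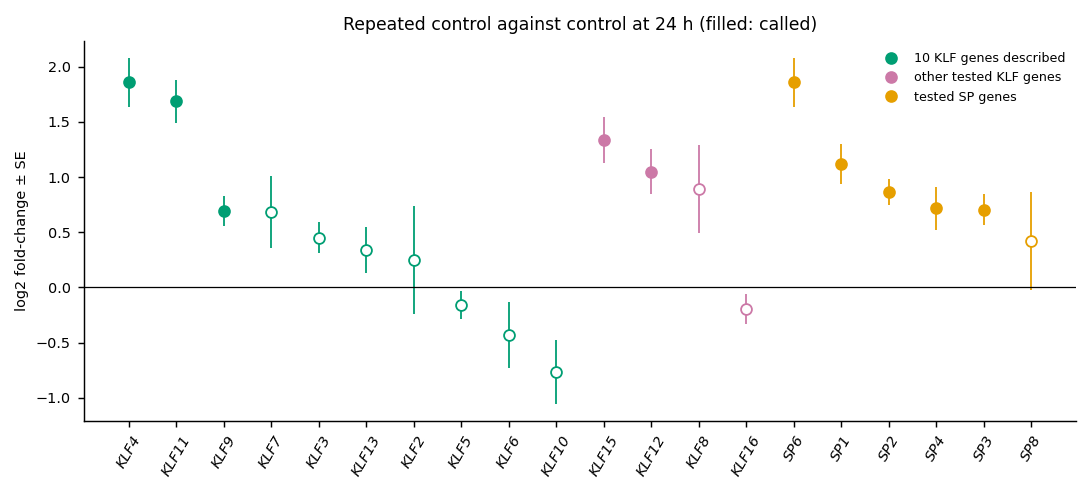
Log2 fold-change ± SE (y axis) of the repeated controls over the 24-h controls for the 10 members, the 4 other tested KLF genes and the 6 tested SP genes (x axis), from the edgeR fit of 15 libraries. Filled points were called. The called genes all lie above 0, from 0.69 for KLF9 to 1.86 for KLF4 and SP6.

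Upstream of KLF2 and KLF4, the kinase gene MAP3K2 and the transcription factor gene MEF2A were called higher, by 0.99 ± 0.156 and 1.08 ± 0.274, among the 7 tested genes of the MEK5-ERK5-MEF2 route. Among the 9 tested genes that act on KLF protein stability, FBXO32 was higher by 2.25 ± 0.54 and FBXW7, whose ligase degrades KLF5, by 0.64 ± 0.147. Among the TGF-beta-SMAD genes, KLF11 and SMAD7 were called higher, the latter by 0.81, and TGFB2 and TGFB1 lower, by -1.79 and -0.88. In the glucocorticoid receptor list ZBTB16 was higher by 1.06, as was KLF9, and DUSP1 lower by -0.88, among 10 genes. Of the 13 tested KLF targets 4 were higher and 3 lower. CDH1 was higher by 1.36 ± 0.21 and SMAD7 and CDKN1A by 0.81 and 0.73, while CCND1, CCNB1 and ENG were lower by -2.58, -1.20 and -0.78. The libraries of CCND1 overlapped, with 12.2 to 147 CPM in the 24-h controls and 15.1 to 17.9 CPM in the repeated controls. IVL, an epidermal differentiation gene, was also called higher, with 0 to 1 counts in the 24-h controls and at most 25 in the repeated controls. It passed the filter on low counts only through libraries of the repeated protocol, where it is higher, so its call is no separate evidence. Of the epithelial markers 3 were called higher (CDH1, KRT19 and EPCAM) and 3 lower (KRT7, KRT8 and KRT18), and their part in the KLF differences was not tested. Time in culture, plating density and washing differ together between these controls, and the numbers of the experiments do not pair across protocols, so what sets the levels apart cannot be told apart.

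Some pairs of members varied together in log2 CPM across the 15 libraries. Pearson's r was 0.92 for KLF3 with KLF13, 0.86 for KLF4 with KLF11, -0.78 for KLF9 with KLF10 and -0.71 for KLF2 with KLF6 (n = 15 libraries, which share conditions, experiments and depth). Among the tested genes most like KLF4 were CNOT6L (r = 0.972) and OSGIN2 (r = 0.97). For KLF9 the closest were BCL2L11 (r = 0.959), EDN2 and RBM47, for KLF10 FOSB (r = 0.941), SERPINB8 and HBS1L, and for KLF11 WAC (r = 0.994), CCDC50 and PITPNM3. KLF5 had the weakest best match, KLHL4 (r = 0.892), followed by CKAP2 and FAM111B. For the others the best matches were ZFPL1 for KLF2 (0.919), HACD2 for KLF3 (0.981), LRRC40 for KLF6 (0.962), CHD6 for KLF7 (0.979) and PRKCE for KLF13 (0.941).

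Some members share sequence with other genes. KLF3 overlaps KLF3-AS1 on the other strand by up to 266 exon bases, and that gene held 97 counts over the 15 libraries. KLF11 overlaps ENSG00000271787 on the other strand, which held 0 counts. The strand setting of the counting is not given in the sources used here, so reads from KLF3 and KLF3-AS1 in the shared bases cannot be told apart.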

How the data were processed

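The authors deposited 1 table of raw counts per gene for 15 libraries, without normalization, made from single-end reads aligned with STAR and counted with featureCounts. The submitters' processing notes name hg19, whereas the study's methods and the coordinates in the table are GRCh38. The annotation and strand setting are not given in the sources used here. The deposited exon lengths were used for levels per kilobase. Samples were grouped by their labels.

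Counts were fitted in R 4.3.3 with edgeR 4.0.16 (filterByExpr by condition, TMM, quasi-likelihood test in the earlier mode), with 1 mean per condition over all 15 libraries. Calls required a Benjamini-Hochberg adjusted p under 0.05 and a log2 fold-change of 0.6 or more in size. The SE was taken from the F statistic (fold-change over root F, on the log2 scale). The 95% intervals were built from this SE with the normal distribution, so they are approximate and narrower than the F tests imply. The fits were tested on simulated data. Tables and figures were made with Python 3.11.15, pandas 2.3.3 and matplotlib 3.10.9. The floor of 3 counts covers counting error only, and p-values measure the spread between experiments on 1 line.

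The series record gives the replicate number as the experimental batch. Deviations from group means correlated between libraries of the same number at 0.201 to 0.721 (24 h) and 0.121 to 0.181 (repeated), and on average at -0.231 and -0.078 between different numbers, so the numbers were taken to pair libraries, separately in each protocol. Alternatives covered RLE size factors, no filter, only the libraries compared, the replicate block, a term for the 2 runs of sample numbers, DESeq2 1.42.0, each library left out, and 24-h experiment 2 left out. The current mode of edgeR was added after seeing the data.

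All 10 members are named in every comparison, and from each context list up to 4 called genes with the largest change per comparison, plus any further called genes and FKBP5, chosen after their values were seen. The members and lists were chosen with earlier results of these data known. Likeness was ranked by Pearson's r of log2 CPM (prior count 2), with 3 genes per member. A few genes that these rules cover, and the counts that need them, are not reported here.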

Additional observations from a re-analysis of the deposited data

Results flagged for a closer look

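The responses of 3 members to a single and to repeated exposure to 1 µg/cm2 of PM2.5 went in opposite directions in all 3 experiments of each protocol. These members were picked for this pattern or for their result with the replicate block, and the share of all genes with the pattern was not counted. Some of the differences were small, such as 0.03 for KLF9 and -0.07 for KLF10. In the main fit 0 of 17599 genes were called for the difference of responses. For KLF9 the response to repeated exposure minus that to a single exposure was -0.84 on the log2 scale (SE 0.190, adjusted p 0.351 by edgeR), with 0.54, 0.03 and 0.62 in the single and -0.45, -0.41 and -0.52 in the repeated protocol. The difference was called with the replicate block at -0.86 (adjusted p 0.044, range over all alternatives 1.6e-05 to 0.953). For KLF2 the difference was 0.81 (SE 0.698, adjusted p 0.884), with -0.50, -0.28 and -0.94 in the single and 0.63, 0.09 and 0.19 in the repeated protocol. Leaving out one library moved it between 0.14 (24-h control of experiment 2) and 1.74 (1 µg/cm2 library of experiment 2). For KLF10 it was 0.52 (SE 0.406, adjusted p 0.855), with -0.07, -0.07 and -0.11 in the single and 0.07, 0.18 and 0.90 in the repeated protocol. Leaving out one library moved it between 0.18 (treated library of repeated experiment 3) and 0.67. Groups of 3 libraries are too small for a test of single libraries that stand apart.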

How the results depend on the processing

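Of 410 values of single members under alternatives other than leaving out one library, 381 kept their side of the thresholds, 6 lost a call and 23 gained one. With one library left out, 410 of 420 values kept it, 5 lost a call and 5 gained one. No called value changed sign in either set, while 7 and 29 uncalled values did. The replicate block, 24-h experiment 2 and the spread shared by the protocols moved the counts of calls most, and the cause was not tested. Some 24-h libraries held under 100 counts of KLF2 or KLF13.

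Genes called numbered 1420 after 30 µg/cm2, 11 after 1 µg/cm2, 1379 between the concentrations, 40 after repeated exposure, 3860 between the controls and 0 for the difference of responses. Members called numbered 2, 0, 3, 0, 3 and 0 in the same order. Without a filter, 38 genes were called after 1 µg/cm2, 92 after repeated exposure and 20 for the difference of responses. Between the controls 4224 genes and 5 members were then called. With only the libraries compared, 4240 genes and 5 members were called between the controls. In the other comparisons the genes numbered 360 (30 µg/cm2), 2 (1 µg/cm2), 149 (between concentrations), 1029 (repeated) and 1 (difference of responses), and the members 0 after 30 µg/cm2 and 1 between concentrations. With the replicate block, which pairs libraries of 1 experiment, the genes numbered 2681, 74, 2737, 773 and 181 in that order, and 1 member was called for the difference of responses. The block changed no other call of a member than those of KLF10 and KLF9 already given. Without 24-h experiment 2 the genes numbered 3430 (30 µg/cm2), 378 (1 µg/cm2), 3113 (between concentrations), 5564 (between the controls) and 1766 (difference of responses). The members numbered 6 between the controls and 2 for the difference of responses. DESeq2 called 39 genes after 1 µg/cm2, 250 after repeated exposure and 75 for the difference of responses, with 1 member there.

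With each library left out in turn, genes called ranged from 794 to 2706 after 30 µg/cm2, from 4 to 45 after 1 µg/cm2, from 711 to 2715 between concentrations, from 0 to 11 after repeated exposure, from 2832 to 4071 between the controls and from 0 to 63 for the difference of responses. Members called ranged from 2 to 3, 0 to 0, 2 to 3, 0 to 0, 2 to 3 and 0 to 1 in the same order. The controls of both protocols were not fitted with the replicate block, since their numbers belong to different experiments.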
